A study of Mus musculus with 6 samples.

Results

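The expression of 7 serotonin receptor genes, Htr1b, Htr1f, Htr2a, Htr2c, Htr4, Htr6 and Htr7, was examined in single nuclei of mouse striatum. These genes were taken by name from a table of 24841 genes, in which 14 serotonin receptor genes were listed, and were followed in all nuclei, by cell class and by genotype. The nuclei came from frozen, dissected striatum of 3 wild-type and 3 Celsr3 heterozygous mouse samples, with 1 library per biological replicate, and all 6 libraries shared 1 sequencing lane. Celsr3 encodes a cadherin of the cell surface that guides axons. The labels name no Celsr3 allele, strain, sex, age or litter and do not say whether animals were pooled, so none of these could be set beside the groups. Of 48834 nuclei, 47884 were kept, 7587, 7754 and 7952 of them from wild type and 7709, 8210 and 8672 from heterozygotes. Values by library are listed throughout in the order of replicates 1, 2 and 3 of a group. Values are means per nucleus of the deposited value, read here as a score corrected for depth and not as a molecule count, so levels of different genes are not set against each other.

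Serotonin receptors other than the Htr3 channels are G protein-coupled receptors. Htr1b and Htr1f encode receptors coupled to Gi/o proteins, which lower cyclic AMP, Htr2a and Htr2c encode receptors coupled to Gq proteins, which activate phospholipase C, and Htr4, Htr6 and Htr7 encode receptors coupled to Gs proteins, which raise cyclic AMP. In the striatum serotonin is released by axons of raphe neurons, so the enzymes of its synthesis are made elsewhere, while the receptors are made by striatal cells and by neurons that project to the striatum. The main striatal cells are medium spiny neurons (MSN), divided into D1 neurons of the direct pathway and D2 neurons of the indirect pathway, and most of them lie in the matrix, with a minority in patches called striosomes.

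Clusters of nuclei were called by marker genes, and the call is written "X-like". D1 MSN-like nuclei numbered 9144 and D2 MSN-like nuclei 6475. The D1 class was mixed in its cluster 7, which had Drd1, the D1 dopamine receptor gene, at 0.779 ± 0.198 and Drd2, the D2 dopamine receptor gene, at 0.962 ± 0.0933, against 0.9998 ± 0.1195 and 0.0859 ± 0.0112 in cluster 0, the largest of the class (SD, n = 6 each). When nuclei were clustered with the Htr genes left out, 668 of the 2008 nuclei of cluster 7 fell into the D2 class, and these had Drd1 at 0.144 ± 0.0317 and Drd2 at 2.67 ± 0.273. In all, 679 nuclei (7.43%) of the D1 class moved to the D2 class and 25 nuclei moved the other way, so values for the D1 class include some nuclei with high Drd2. Between 15.6% and 24.8% of a library's kept nuclei were D1 MSN-like and between 10.98% and 19.8% D2 MSN-like, so the labelled tissue held its defining cells in every library. Unnamed clusters made up 13.6% of the kept nuclei. They include cluster 8, which passed for all 8 oligodendrocyte markers but had Enpp6, a marker of committed oligodendrocyte precursors, among its leading 10 genes. Of the other unnamed clusters, cluster 5, led by Sim1, Baiap3 and 6330411D24Rik, and cluster 21, led by Trpm6, Abhd12b and Gm29478, had low values of MSN genes. Rgs9, a regulator of G protein signalling abundant in MSN, was at 0.346 ± 0.0535 (SD, n = 6) in cluster 5 and 0.0761 ± 0.0261 (SD, n = 5 libraries) in cluster 21, against 6.67 ± 0.276 (SD, n = 6) in the largest D1 MSN-like cluster. Cluster 5 held 1130 nuclei of heterozygous replicate 2 and 117 to 409 of each other library, and cluster 27, led by Ano1, Trpc4 and Cpa6, held 268 nuclei of heterozygous replicate 3 among its 280. The median number of genes per nucleus ranged from 2435 to 3001.5 between libraries. There were 274 cell barcodes that occurred in more than 1 library. Celsr3 itself was lower in all 3 heterozygous libraries than in all 3 wild-type libraries in all nuclei. It was at 0.0944 ± 0.0175 in wild type and 0.0653 ± 0.00398 in heterozygotes (SD, n = 3 each), which did not pass limma's test over all genes (adjusted p = 0.454). Its log2 difference, heterozygous over wild type, was -0.78 ± 0.13 in D1 and -0.59 ± 0.17 in D2 MSN-like nuclei (SE; limma adjusted p = 0.146 and 0.338). In glutamatergic neuron-like nuclei it was -0.81 ± 0.15 and in GABAergic interneuron-like nuclei -0.12 ± 0.22 (adjusted p = 0.656 and 0.992). The groups did not overlap in the D1, D2 and glutamatergic classes. Thus a gene that did not pass may still differ.

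Positions are in the GRCm38 build (GENCODE M21), where all 7 members are annotated, and that of Htr4 is not printed. Htr1b lies on chromosome 9 from 81628291 to 81633828, on the same chromosome as Celsr3 (108826320 to 108852969), Htr1f on chromosome 16 from 64924729 to 65105854, and Htr2a on chromosome 14 from 74640840 to 74709494. Htr2c lies on chromosome X from 146962513 to 147197277, Htr6 on chromosome 4 from 139061108 to 139075570 and Htr7 on chromosome 19 from 35958734 to 36057507. Htr1b is overlapped by the antisense gene D430036J16Rik, which is also listed in the table. Whether strand was used in counting is not given in the sources used here, and a part of D430036J16Rik reads in the Htr1b values was not tested.

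The 250 bases before the start of transcription, from RefSeq (GRCm38.p6), were matched for 6 of the members. They are shown for 3 members: Htr2c, high in choroid plexus-like nuclei, Htr1b, high in MSN-like nuclei, and Htr6, above 0 in few nuclei. Each is printed 5′ to 3′ on the gene's strand, and capitals mark CG dinucleotides and any match, on either strand, to the TATA box (TATAAA), the GC box (GGGCGG), the E-box (CACGTG) or the cyclic AMP response element (TGACGTCA), of which the last 3 contain CG themselves. The Htr2c window is chrX:146962263-146962512 (plus strand), that of Htr1b is chr9:81633833-81634082 (minus strand) and that of Htr6 is chr4:139075571-139075820 (minus strand).
Htr2c: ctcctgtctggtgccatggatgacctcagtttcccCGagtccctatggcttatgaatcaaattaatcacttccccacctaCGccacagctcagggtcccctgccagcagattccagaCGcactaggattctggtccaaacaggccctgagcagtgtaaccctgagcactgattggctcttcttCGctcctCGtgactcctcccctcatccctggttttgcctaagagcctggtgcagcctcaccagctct
Htr1b: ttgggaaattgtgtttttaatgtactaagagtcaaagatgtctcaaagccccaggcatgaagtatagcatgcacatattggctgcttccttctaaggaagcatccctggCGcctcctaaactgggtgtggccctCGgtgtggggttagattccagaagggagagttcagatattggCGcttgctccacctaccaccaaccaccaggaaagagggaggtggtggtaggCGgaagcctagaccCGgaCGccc
Htr6: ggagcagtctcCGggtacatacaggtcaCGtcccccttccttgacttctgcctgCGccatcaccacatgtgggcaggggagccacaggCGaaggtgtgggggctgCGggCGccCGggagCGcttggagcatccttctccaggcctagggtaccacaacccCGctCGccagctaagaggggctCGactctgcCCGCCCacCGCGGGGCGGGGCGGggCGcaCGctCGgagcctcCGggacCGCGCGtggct

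The Htr2c window holds 5 CG dinucleotides, and 44.4% of 32851 RefSeq windows of this length hold fewer. The Htr1b window holds 6 (49.6% hold fewer) and the Htr6 window 23 (86.7% hold fewer), while another annotated start of Htr6 has 9. Among the windows not printed, Htr7 held 41 CG dinucleotides, more than 98.9% of all windows, Htr1f held 7 and Htr2a 4. The letters GGGCGG were found in the Htr6 window printed and in that of Htr2a and in 32.7% of all windows. None of the members' windows held the TATA box (12.4% of all windows), the E-box (6.02%) or the cyclic AMP response element (1.55%). These matches describe letters only.

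The members fell into different class patterns. Htr1b had its highest values in the D1 and D2 MSN-like classes among the 14 classes that every library filled with 20 nuclei or more. Htr1f and Htr2a were high in glutamatergic neuron-like nuclei as well as in MSN-like nuclei. Among the 14 classes, Htr4 had its highest means in D2, eccentric and D1 MSN-like nuclei, each overlapping the next. Htr7 had its highest class mean in cholinergic interneuron-like nuclei, and Htr2c in choroid plexus-like nuclei. These are descriptions with no test, since clusters were built from the same nuclei and Htr2c, Htr4 and Htr7 were among the 2000 genes used for clustering. Where the ranges of neighbouring classes over the 6 libraries overlap, their order is not taken as a difference.

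**Figure D1:**
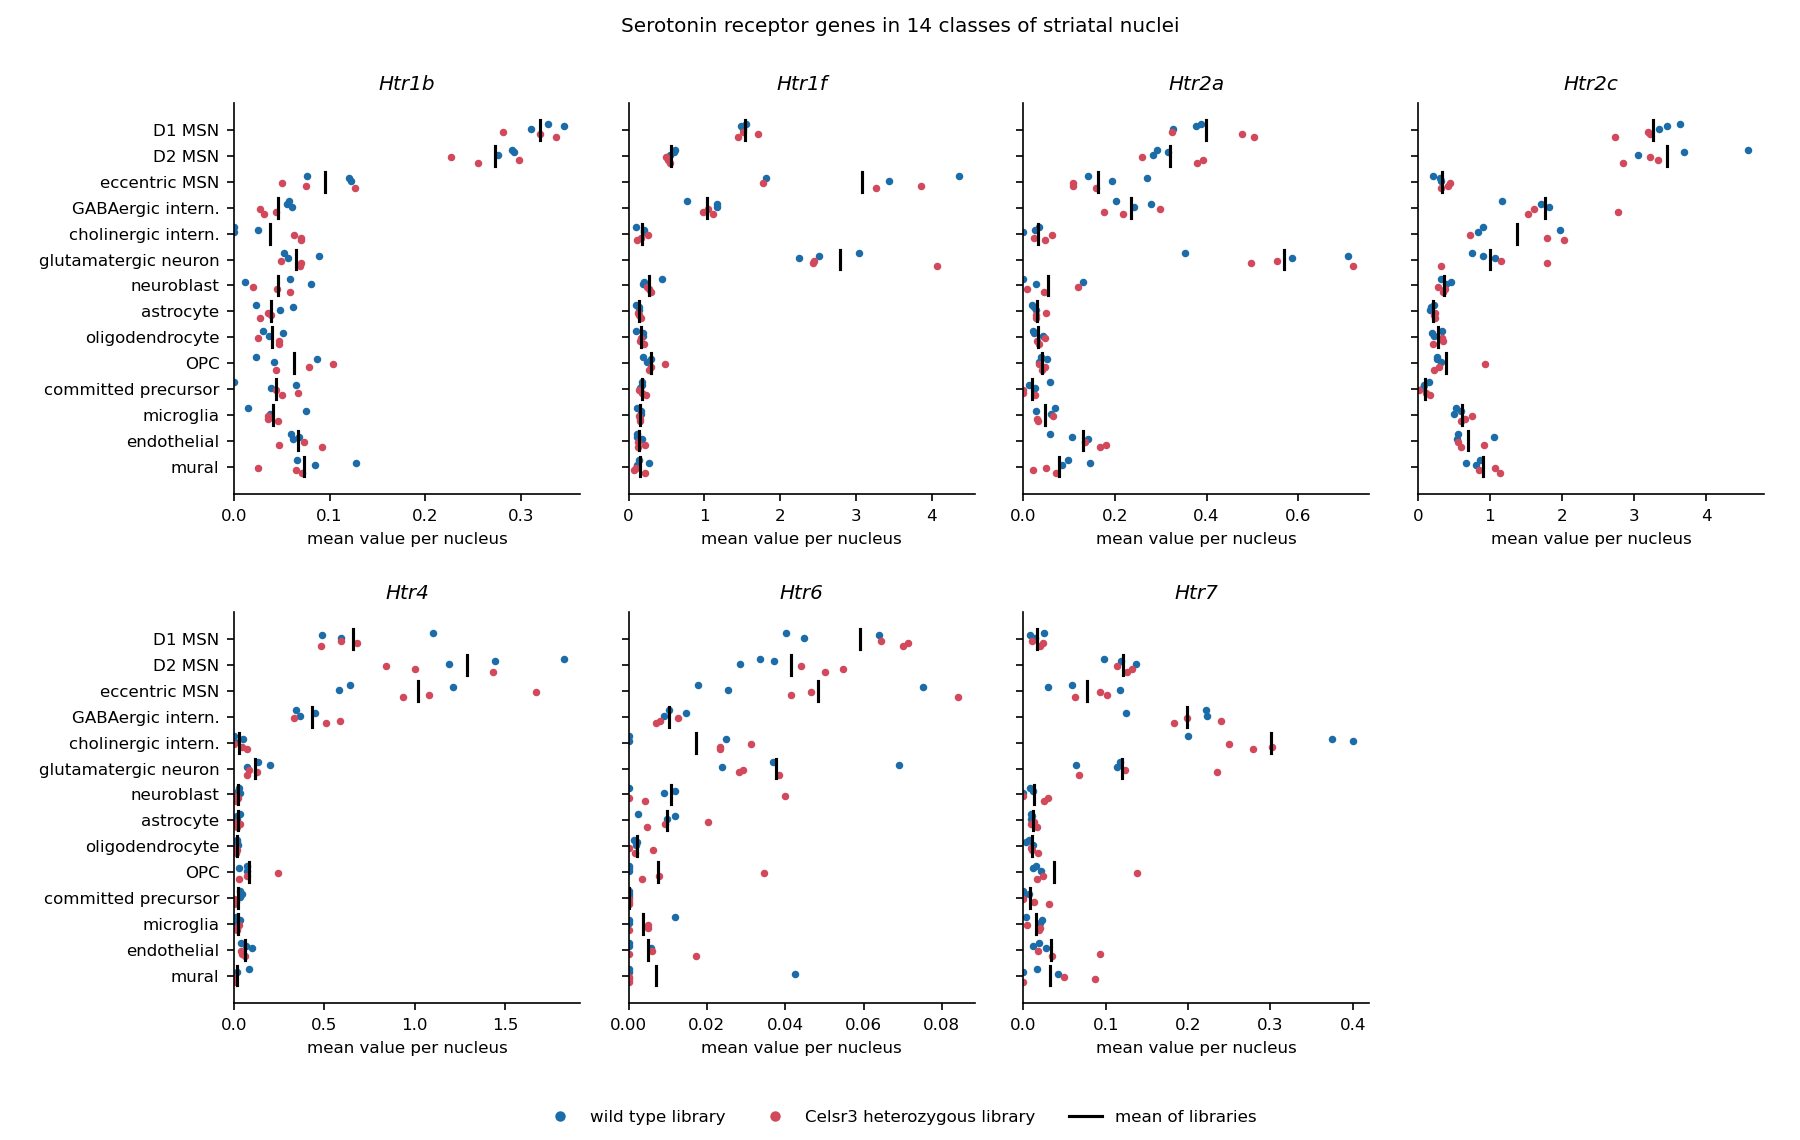
Mean value per nucleus (horizontal axis, a separate scale for each gene) of the 7 serotonin receptor genes in 14 classes; each point is 1 library (blue wild type, red Celsr3 heterozygous) and each bar the mean of the 6 libraries. Choroid plexus-like nuclei are not drawn, because 3 libraries held none after doublet removal. Htr1b points of the D1 and D2 MSN-like classes, from 0.227 to 0.345, lie above those of all other classes drawn, and Htr4 points of 4 neuronal classes lie above the rest.

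Of the receptors coupled to Gi/o, Htr1b, which acts on axon terminals and lowers transmitter release, averaged 0.320 ± 0.0226 in the D1 MSN-like class and 0.273 ± 0.0273 in the D2 MSN-like class (SD, n = 6 libraries each). Their ranges over libraries overlapped (0.281 to 0.345 and 0.227 to 0.298). Eccentric MSN-like nuclei, a class that shares MSN genes and is marked by Otof and Casz1, were next at 0.0952 ± 0.0320, with a highest library of 0.126 that did not reach the lowest of D2 MSN-like nuclei. From there down to cholinergic interneuron-like nuclei, the lowest class (0.0378 ± 0.0337), each class overlapped the next. A value above 0 was seen in 28.5% of nuclei in the D1 class and 23.8% in the D2 class (means of 6 libraries), and the 2 classes gave 44.8% and 27.1% of the summed Htr1b value from 19.1% and 13.5% of the nuclei.

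Htr1f, the other receptor coupled to Gi/o, was spread more widely over neurons. Its mean was 3.08 ± 1.07 in eccentric MSN-like and 2.79 ± 0.682 in glutamatergic neuron-like nuclei (SD, n = 6 each), and these ranges overlapped (1.77 to 4.35 and 2.24 to 4.07). It was followed without overlap by D1 MSN-like nuclei at 1.53 ± 0.0924 (lowest 1.44, median 1.51, highest 1.71), by GABAergic interneuron-like nuclei at 1.04 ± 0.149 and by D2 MSN-like nuclei at 0.555 ± 0.0427 (lowest 0.4995, median 0.552, highest 0.611). Every D1 MSN-like library therefore lay above every D2 MSN-like library. Oligodendrocyte precursor-like nuclei (OPC) came next at 0.295 ± 0.0995, and the classes below them overlapped, down to astrocyte-like nuclei at 0.134 ± 0.0215.

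Among the receptors coupled to Gq, Htr2a, a receptor of cortical pyramidal neurons and the main target of classical psychedelics, averaged 0.570 ± 0.138 in glutamatergic neuron-like nuclei (SD, n = 6 libraries, as for the other classes). The D1 MSN-like class had 0.3997 ± 0.0755 and the D2 MSN-like class 0.320 ± 0.0541, and GABAergic interneuron-like nuclei had 0.236 ± 0.0468. Each of these classes overlapped the next in the order. The lowest class was the committed oligodendrocyte precursor-like one, at 0.0202 ± 0.0215.

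Htr2c, whose transcripts are edited by adenosine deaminases and whose receptor is known for its abundance in the choroid plexus, was at 133.5, 135.6 and 131.4 in the choroid plexus-like nuclei of wild-type replicates 1 and 2 and heterozygous replicate 3, and above 0 in 100% of them (63, 49 and 125 nuclei). The other 3 libraries held none of these nuclei after doublet removal, which took 1 from heterozygous replicate 1. For wild-type replicate 3 and heterozygous replicate 2, 0 of 7952 and 0 of 8210 allows a share of up to 0.0377% and 0.0365% (counting error only). Among the 14 classes Htr2c was highest in D2 MSN-like nuclei at 3.45 ± 0.619 and D1 MSN-like nuclei at 3.26 ± 0.305 (SD, n = 6 each), with overlapping ranges (2.84 to 4.58 and 2.74 to 3.63). The unnamed cluster 5 had a higher mean, 4.203 ± 0.661, with a range that overlapped that of D2 MSN-like nuclei. GABAergic interneuron-like nuclei at 1.77 ± 0.540, cholinergic interneuron-like nuclei at 1.37 ± 0.617 and glutamatergic neuron-like nuclei at 0.997 ± 0.488 followed with overlapping ranges. Eccentric MSN-like nuclei stood far below the other MSN-like classes, at 0.335 ± 0.0827, and their highest library, 0.441, did not reach the lowest D1 MSN-like library.

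Shares of nuclei with a value above 0 were read against astrocyte-like nuclei, whose median was 2030 genes per nucleus. There Htr1b was above 0 in 3.26%, Htr1f in 8.345%, Htr2a in 2.37%, Htr4 in 1.449%, Htr6 in 0.974% and Htr7 in 0.940% of nuclei, and Htr2c in 12.9%, so a share of Htr2c near this level is not taken as expression. Htr2c was above 0 in 45.5% ± 9.25 of microglia-like nuclei (SD, n = 6) at a mean of 0.608, and in 91.3% of the nuclei of the unnamed cluster 12 at a mean of 1.53 ± 0.268. Of the shared MSN genes, Rgs9 and Pde10a were higher in microglia-like nuclei than in cluster 4, the largest astrocyte-like cluster. They were at 1.16 ± 0.123 against 0.506 ± 0.0793 and 3.99 ± 0.457 against 2.24 ± 0.108 (SD, n = 6 each). Meis2 alone was lower, at 2.26 against 5.80. The astrocyte-like share is thus not a floor for microglia-like nuclei, and their Htr2c value is not read as expression. Mural-like and endothelial-like nuclei had higher Htr2c means, 0.903 ± 0.175 and 0.703 ± 0.222 (SD, n = 6 each), with overlapping ranges. These are not read as expression either. Cluster 12, with Pmch and the choroid plexus gene Ttr among its leading 10 genes, had a median of 1721 genes per nucleus, against 1896 in microglia-like and 3391 in D1 MSN-like nuclei. Its Htr2c mean was 2.00, 1.51 and 1.68 in the libraries with choroid plexus-like nuclei and 1.36, 1.27 and 1.38 in those without, so these libraries did not overlap. The part of free RNA in these values was not tested. The oligodendrocyte-like mean of Htr2c was 0.336, 0.193 and 0.211 in the libraries with choroid plexus-like nuclei and 0.218, 0.341 and 0.346 in those without, so these ranges overlapped.

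Of the receptors coupled to Gs, Htr4, which is bound at the membrane by S100a10 protein, averaged 1.29 ± 0.353 for D2, 1.02 ± 0.401 for eccentric and 0.656 ± 0.230 for D1 MSN-like nuclei and 0.431 ± 0.102 for GABAergic interneuron-like nuclei (SD, n = 6 each), each overlapping the next. The lowest interneuron library, 0.334, lay above the highest glutamatergic neuron-like library, 0.197. Cholinergic interneuron-like nuclei had a highest library of 0.0698, below every library of the GABAergic interneuron-like class.

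Htr6, a receptor carried on neuronal primary cilia, was above 0 in few nuclei of any class, with a mean of 0.0591 ± 0.0133 for D1, 0.0484 ± 0.0265 for eccentric and 0.0414 ± 0.0101 for D2 MSN-like nuclei and 0.0376 ± 0.0163 in glutamatergic neuron-like nuclei (SD, n = 6 each). These ranges overlapped, and the gene was listed at 0 in every library of the committed oligodendrocyte precursor-like class. A value above 0 was seen in 5.77% of nuclei of the D1 class and 3.93% of the D2 class.

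Htr7, known for its levels in thalamus and hypothalamus, averaged 0.301 ± 0.0756 in cholinergic interneuron-like nuclei (lowest 0.200, median 0.291, highest 0.4), a class of 218 nuclei with 30 to 43 per library. GABAergic interneuron-like nuclei followed at 0.199 ± 0.0415, D2 MSN-like nuclei at 0.121 ± 0.0140 and glutamatergic neuron-like nuclei at 0.1201 ± 0.0618 (SD, n = 6 each), each overlapping the next. D1 MSN-like nuclei had between 0.00831 and 0.0251, below every library of the D2 MSN-like class (0.0984 to 0.137).

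Within the D1 and D2 MSN-like classes, Htr2a, Htr4 and Htr1f varied between clusters, and Htr7 did so in the D2 class. D1 MSN-like nuclei formed cluster 0 (6015 nuclei), cluster 7 (2008, led by Drd3, Pde1c and Stk31) and cluster 15 (1121), and D2 MSN-like nuclei formed cluster 1 (5069) and cluster 11 (1406). Clusters 15 and 11 had high values of the striosome list genes Bach2, Kremen1 and Sema5b and low values of the matrix list genes Epha4, Sv2b and Id4. Gda, the other gene of the matrix list, was at 0.684 ± 0.0972 and 0.761 ± 0.1205 there, below cluster 7 (1.46 ± 0.158) but not below cluster 0 (0.591 ± 0.0665) or cluster 1 (0.666 ± 0.103). Bach2, of the striosome list, was at 2.44 ± 0.409 in cluster 15 and 2.495 ± 0.245 in cluster 11, against 0.512 ± 0.115 in cluster 0, 0.902 ± 0.202 in cluster 7 and 0.647 ± 0.1204 in cluster 1 (SD, n = 6 each). Epha4 was at 0.771 ± 0.113 and 1.26 ± 0.0764 in clusters 15 and 11, against 2.80 ± 0.296, 1.92 ± 0.202 and 2.95 ± 0.232 in clusters 0, 7 and 1. Oprm1, the mu opioid receptor gene of that list, did not follow this division: it was at 1.01 ± 0.237 in cluster 15 and 0.874 ± 0.278 in cluster 7, against 0.359 ± 0.0688 in cluster 11, 0.249 ± 0.0628 in cluster 1 and 0.151 ± 0.0281 in cluster 0.

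Htr2a had its highest MSN-like cluster means in clusters 15 and 11, at 0.756 ± 0.198 in cluster 15 and 0.754 ± 0.186 in cluster 11 (SD, n = 6 each). It was at 0.537 ± 0.127 in cluster 7, where the range (0.352 to 0.672) overlapped those of clusters 15 and 11, 0.282 ± 0.0923 in cluster 0 and 0.201 ± 0.0405 in cluster 1. The lowest libraries of clusters 15 and 11, 0.559 and 0.509, lay above the highest of clusters 0 and 1, 0.394 and 0.243.

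Htr7 stood apart in 1 MSN-like cluster. In cluster 11 it was at 0.493, 0.585 and 0.609 in wild type and 0.416, 0.436 and 0.590 in heterozygotes, and above 0 in 28.5% of nuclei. In cluster 1, the larger D2 MSN-like cluster, its mean was 0.0116 ± 0.00701, and in the D1 MSN-like clusters it lay between 0.00947 and 0.0353. Cluster 15, which shares high Bach2, Kremen1 and Sema5b, had Htr7 at 0.0253 ± 0.0167.

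Htr4 and Htr1f followed another division. Htr4 was at 1.99 ± 0.479 in cluster 7, where it is also among the leading genes, and at 0.307 ± 0.212 in cluster 0 and 0.101 ± 0.0591 in cluster 15 of the same class. Of the nuclei of cluster 7, the 1335 that stayed in the D1 class without the Htr genes had Htr4 at 2.16 ± 0.508, and the 668 that moved to the D2 class had 1.62 ± 0.491. Among D2 MSN-like nuclei it was at 1.46 ± 0.398 in cluster 1 and 0.624 ± 0.157 in cluster 11, without overlap between libraries. Htr1f was at 1.98 ± 0.278 in cluster 7 and 1.59 ± 0.0893 in cluster 0, and at 0.402 ± 0.0814 in cluster 15. In D2 MSN-like nuclei it was at 0.624 ± 0.0409 in cluster 1 and 0.301 ± 0.0478 in cluster 11. Thus Htr1f and Htr4 were lower, and Htr2a higher, in clusters 15 and 11 than in the largest cluster of the same class, with no overlap of libraries except for Htr4 between clusters 0 and 15.

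Htr1b, Htr2c and Htr6 varied less between these clusters. Htr1b ran from 0.231 ± 0.0362 in cluster 11 to 0.332 ± 0.0473 in cluster 7, Htr2c from 2.40 ± 0.322 in cluster 15 to 3.98 ± 0.564 in cluster 7 (3.11 ± 0.383 in its nuclei that stayed in the D1 class and 5.84 ± 1.29 in those that moved), and Htr6 from 0.0387 ± 0.0106 in cluster 1 to 0.0622 ± 0.0232 in cluster 15. Cluster 14, all of the eccentric MSN-like class, was led by Npffr2, Gm40663 and B020031H02Rik and has the values given for that class.

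**Figure D2:**
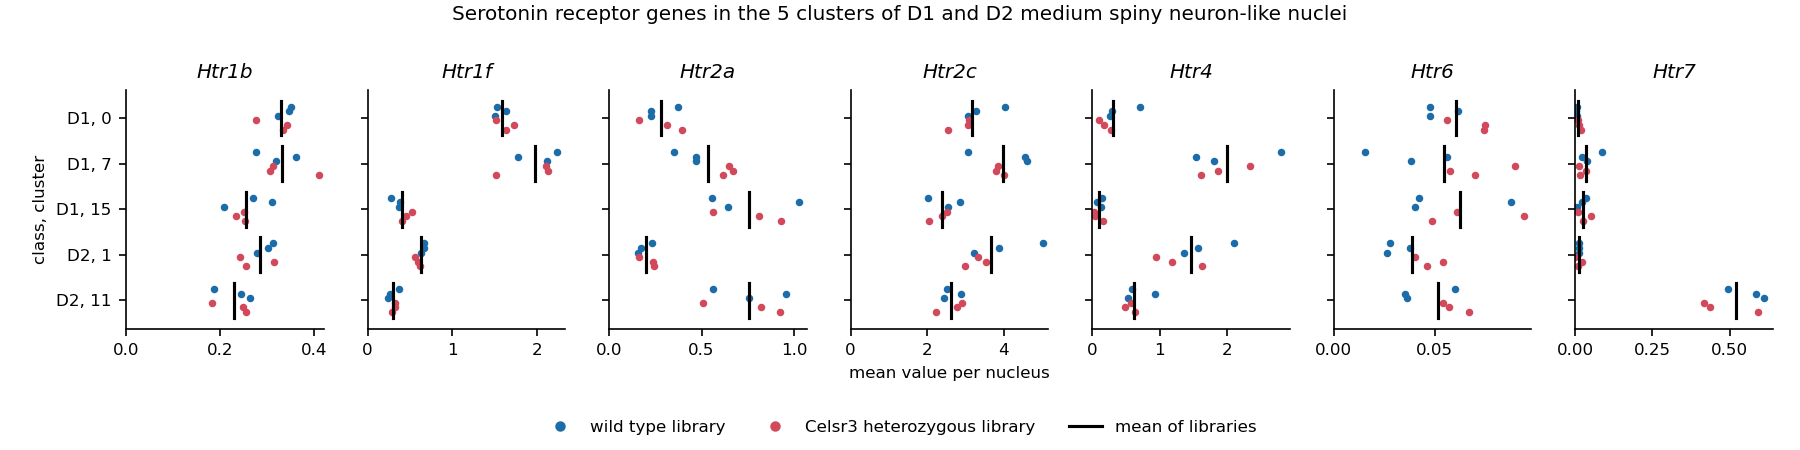
Mean value per nucleus (horizontal axis, a separate scale for each gene) of the 7 genes in the D1 MSN-like clusters 0, 7 (mixed in Drd1 and Drd2) and 15 and the D2 MSN-like clusters 1 and 11; each point is 1 library and each bar the mean of the 6 libraries. Htr7 points of cluster 11, from 0.416 to 0.609, are separate from those of every other cluster, and Htr2a points of clusters 15 and 11 start at 0.509.

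Clustering again with every Htr gene left out placed 98.5% of the nuclei of cluster 15 and 93.5% of those of cluster 11 in the matching new cluster, and 63.4% of those of cluster 7. A further 32.2% of cluster 7 (646 nuclei) went to the match of cluster 11, so the boundary between the D1 and D2 classes moved, and 998 nuclei of cluster 0 went to the match of cluster 7. The new cluster that matched cluster 11 was larger (1978 nuclei), with Htr7 at 0.395 ± 0.0685 against 0.0118 ± 0.00767 in the other D2 MSN-like cluster (SD, n = 6 each). Htr2a was at 0.727 ± 0.156 there and 0.745 ± 0.185 in the match of cluster 15. Htr1f and Htr4 did not keep their values in the match of cluster 11, at 0.889 ± 0.513 and 0.996 ± 0.276, and the Htr1f mean then lay above that of the larger D2 MSN-like cluster (0.619 ± 0.0442), with 1.87 in wild-type replicate 1 and 0.468 to 0.994 in the other libraries. Htr4 in the match of cluster 7 was at 1.60 ± 0.371.

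Most MSN-like nuclei had values above 0 for more than 1 member. In D1 MSN-like nuclei 2.77% had none, 18.4% had 1 member, 38.1% had 2, 27.2% had 3 and 13.4% ± 2.26 had 4 or more (SD, n = 6). In D2 MSN-like nuclei 2.82% had none and 12.3% ± 1.73 had 4 or more. Htr2a and Htr7 were both above 0 in 3.17% ± 0.422 of D2 MSN-like nuclei, where the product of their single shares is 1.50%, a ratio of 2.16 that ranged from 1.70 to 2.63 over libraries. Htr1f with Htr7 had a ratio of 0.692 (0.553 to 0.964) and Htr2c with Htr7 one of 0.780 (0.682 to 0.833) in the same class. Htr1f with Htr2c, the pair seen together most in D1 MSN-like nuclei (54.5% ± 1.82), had a ratio of 1.01. The single shares differed between the D2 MSN-like clusters. Pooled over libraries, Htr2a and Htr7 were above 0 in 44.7% and 28.1% of cluster 11 and in 14.7% and 1.14% of cluster 1. Htr1f was above 0 in 23.4% of cluster 11 and 38.5% of cluster 1. Ratios over the class therefore mix its clusters and do not show pairing within a cluster, which was not tested. All these shares are descriptions of sparse values.

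Among the GABAergic interneuron-like clusters Htr2c had its highest mean in cluster 30 and Htr2a in cluster 22, with ranges that overlapped another cluster in both cases. Cluster 30, led by Nos1, Nxph2 and Chodl, had Htr2c at 3.73 ± 0.888 (SD, n = 6; lowest 2.09, highest 4.42) and Htr2a at 0.125 ± 0.05005. Cluster 22, led by Vip, 9630002D21Rik and Kcnmb2, had Htr2a at 0.404 ± 0.0464 and Htr2c at 1.99 ± 1.28, the latter with a highest library of 4.51 in heterozygous replicate 2. Cluster 24, led by Sfta3-ps, Gna14 and Kit, had the highest means of Htr1f (1.49 ± 0.127) and Htr4 (0.658 ± 0.115) of this class, with ranges that overlapped those of cluster 22. Cluster 25 was led by Ush1c, B130024G19Rik and Gm44532, and its 3 nuclei of heterozygous replicate 1 were all removed by the doublet score. It had Htr7 at 0.0348 ± 0.0507 and Htr2a at 0.0555 ± 0.0507 (n = 5 libraries).

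The glutamatergic neuron-like clusters separated Htr1f from Htr2c. Cluster 16, led by Trabd2b, Gm10635 and Tmem178, and cluster 10, led by 4930467D21Rik, Slc26a4 and 1700047F07Rik, had Htr1f at 3.87 ± 0.662 and 3.31 ± 0.554 and Htr2c at 0.148 ± 0.108 and 0.190 ± 0.0620 (SD, n = 6 each). Cluster 13, led by Tafa1, Igfn1 and Pdzrn3, had Htr1f at 0.875 ± 0.260 and Htr2c at 2.35 ± 0.390 (n = 4 libraries), with no overlap of either gene. Cluster 28, led by Nr4a2, Gm34567 and Smoc2, had both, with Htr1f at 3.25 ± 0.753 and Htr2c at 2.84 ± 0.571, and had Htr2a at 1.54 ± 0.443 (n = 5 libraries). The mix of these clusters differed by library: cluster 13 held 532 nuclei of heterozygous replicate 1 and 3 of heterozygous replicate 3. Glutamatergic neuron-like Htr2c was lowest in heterozygous replicate 3, at 0.315.

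**Figure D3:**
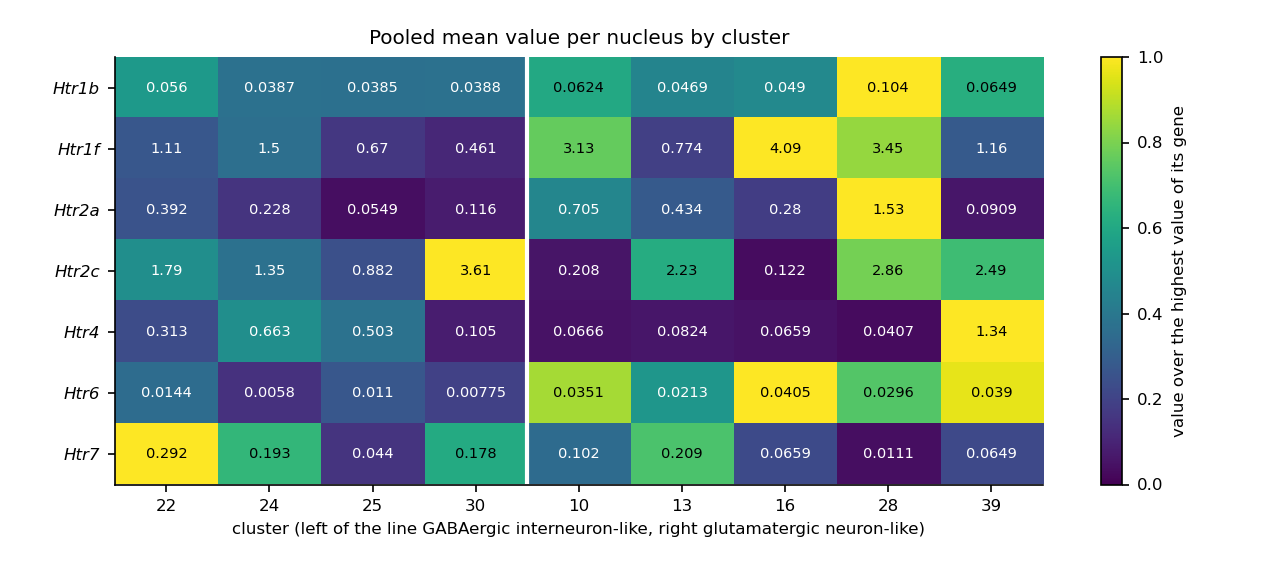
Mean value per nucleus, pooled over libraries, of the 7 genes (rows) in the GABAergic interneuron-like clusters 22, 24, 25 and 30 and the glutamatergic neuron-like clusters 10, 13, 16, 28 and 39 (columns); the colour is the value divided by the highest value of its row, and the printed number is the value. Htr2c is bright in cluster 30 and dark in clusters 10 and 16, where Htr1f is bright.

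Some of the highest Htr7 values lay outside the named classes. Cluster 21, with Slc17a6, the gene of a vesicular glutamate transporter, at 3.36 ± 0.285, had Htr7 at 1.61 ± 0.631 (SD, n = 5 libraries) and above 0 in 70.3% of nuclei. Cluster 27 had 1.18 in heterozygous replicate 3, its 1 library with 20 or more nuclei. Cluster 5, with Gad2, the gene of a GABA-synthesizing enzyme, at 1.78 ± 0.266, had Htr7 at 0.716 ± 0.131 and Htr2c at 4.203 ± 0.661 (SD, n = 6 each). Unnamed clusters together gave 60.7% of the summed Htr7 value of all libraries, of which cluster 5 gave 31.7% and cluster 21 gave 21.8%, and D2 MSN-like cluster 11 gave 13.1% from 2.94% of nuclei. By library the unnamed share was 55.7%, 42.8% and 48.5% in wild type and 20.7%, 73.4% and 78.6% in heterozygotes. The pooled order did not hold in every library: cluster 11 gave more than cluster 5 in wild-type replicate 2 (32.5% and 21.3%), and cluster 21 gave more than cluster 5 in heterozygous replicate 3 (36.5% and 19.5%) and had no nuclei in heterozygous replicate 1.

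Means over all nuclei of a library moved with its mix of clusters. Htr2c was at 2.76, 2.78 and 1.52 in wild type and 1.62, 2.06 and 3.30 in heterozygotes. The 3 highest libraries are those with choroid plexus-like nuclei, which gave 40.1%, 30.8% and 57.4% of the summed value in wild-type replicates 1 and 2 and heterozygous replicate 3. Without these nuclei, an alternative added after the data were seen, Htr2c was at 1.67, 1.94 and 1.52 in wild type and 1.62, 2.06 and 1.43 in heterozygotes. Htr7 was at 0.0854, 0.0654 and 0.102 in wild type and 0.0763, 0.177 and 0.177 in heterozygotes, with heterozygous replicates 2 and 3 above the other 4 libraries. In the 26 clusters that every library filled with 20 nuclei or more, also chosen after the data were seen, Htr7 was at 0.0714, 0.0532 and 0.0835 in wild type and 0.0673, 0.145 and 0.0830 in heterozygotes.

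**Figure D4:**
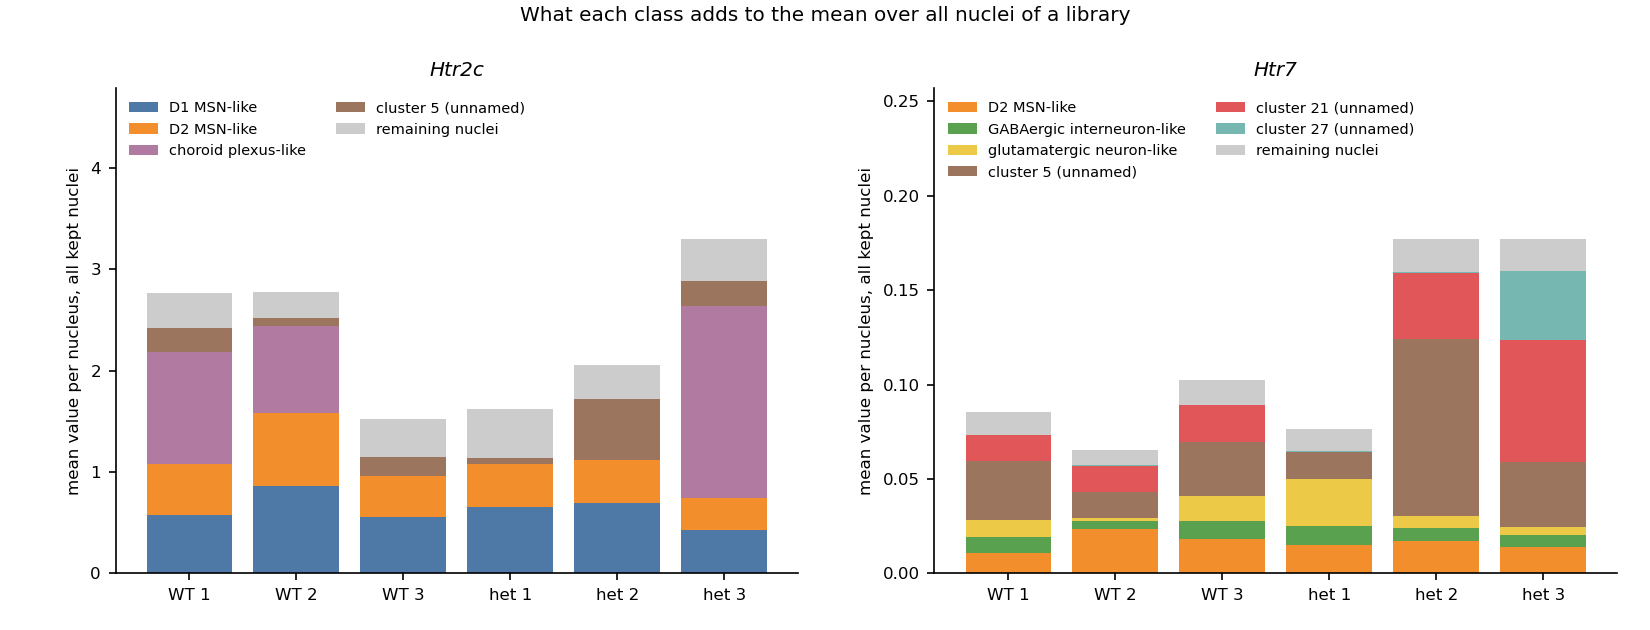
Bars give the mean value per nucleus over all kept nuclei of each library (WT, wild type; het, Celsr3 heterozygous) for Htr2c and Htr7, stacked by the part that each class or unnamed cluster adds. Choroid plexus-like nuclei add to Htr2c in WT 1, WT 2 and het 3 only, and clusters 5, 21 and 27 make up most of Htr7 in het 2 and het 3.

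The genotype comparison asked whether the members' transcripts differed between Celsr3 heterozygous and wild-type striatum. Log2 differences are heterozygous over wild type on the log2(mean + 0.01) scale with their standard errors, and adjusted p-values come from limma with adjustment over all genes tested in the population. No member was called in any population. In all nuclei 0 of the 7 members passed an adjusted p under 0.05, where 0% of all 14396 genes did, and 0 of 7 passed at an unadjusted p under 0.05, where 9.96% of all genes did. No member's genotype groups were free of overlap in all nuclei, where 14.9% of all genes had every heterozygous library above and 4.45% every heterozygous library below the wild type. In the 26 clusters that every library filled, Htr2a was at 0.159, 0.208 and 0.191 in wild type and 0.223, 0.224 and 0.216 in heterozygotes, without overlap, as for 13.4% of 14145 genes with every heterozygous library above there (log2 difference 0.24, adjusted p = 0.554).

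The largest log2 difference of a member in all nuclei was that of Htr7, 0.63 ± 0.32 (SE; adjusted p = 0.515), with the values by library given above. It was 1.01 without heterozygous replicate 1, 0.45 without heterozygous replicate 2 or 3, 0.40 in the clusters that every library filled and 0.21 with equal cluster weights. Htr6 was at 0.0166, 0.0286 and 0.0181 in wild type and 0.0309, 0.0307 and 0.0246 in heterozygotes, a difference of 0.33 ± 0.17 (adjusted p = 0.515), and wild-type replicate 2 overlapped the heterozygotes. The estimate was 0.26 ± 0.14 for Htr2a (adjusted p = 0.524), 0.19 ± 0.11 for Htr1f and -0.090 ± 0.17 for Htr1b, and the groups overlapped. It was -0.17 ± 0.17 for Htr4 and -0.028 ± 0.32 for Htr2c, and that of Htr2c was -0.015 without choroid plexus-like nuclei. The median over the 7 members was 0.19, beside 0.070 over all genes tested.

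In D1 MSN-like nuclei 6 members were tested, since Htr7 did not reach the minimum mean of 0.02. None of the 6 was called, where 0.0147% of 13595 genes were (2 genes, against 156 without wild-type replicate 1 and 1 without heterozygous replicate 1 or 2), and 2 members passed at an unadjusted p under 0.05, as did 10.0% of all genes. Htr6 was at 0.0402, 0.0639 and 0.0447 in wild type and 0.0644, 0.0715 and 0.0701 in heterozygotes. The heterozygous libraries all lay above the wild type, by a narrow gap to wild-type replicate 2, as for 11.5% of all genes, and the difference was 0.42 ± 0.17 (adjusted p = 0.453). Htr2c was at 3.63, 3.45 and 3.35 in wild type and 3.19, 3.22 and 2.74 in heterozygotes. Its heterozygous libraries all lay below, as for 5.25% of all genes, with a difference of -0.19 ± 0.079 (adjusted p = 0.464). Within each of clusters 0, 7 and 15 of this class the Htr2c groups overlapped. Cluster 0 had 4.04, 3.285 and 3.07 in wild type and 3.10, 3.07 and 2.56 in heterozygotes. The estimates for Htr2a (0.23 ± 0.16), Htr4 (-0.23 ± 0.26), Htr1b (-0.068 ± 0.095) and Htr1f (0.032 ± 0.077) came from overlapping groups, with adjusted p from 0.633 to 0.914. Wild-type replicate 1 had an Htr4 value of 1.10, against 0.484 to 0.681 in the other 5 libraries, and without it the Htr4 estimate was 0.11. With classes built without the Htr genes, the estimates were 0.41 for Htr6, with wild-type replicate 2 (0.0657) then above heterozygous replicate 1 (0.0648), -0.24 for Htr2c, still without overlap, and 0.15 for Htr1f. The median over the 6 members was -0.018, and over all genes 0.056.

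In D2 MSN-like nuclei all 7 members were tested and none was called, where 0.00804% of 12443 genes were (1 gene, against 162 without wild-type replicate 1 and 0 without heterozygous replicate 1 or 2). Of the 7, 2 passed at an unadjusted p under 0.05, as did 8.62% of all genes. Htr6 was at 0.0336, 0.0372 and 0.0284 in wild type and 0.0441, 0.0549 and 0.0502 in heterozygotes. The groups did not overlap, with the heterozygotes above as for 9.10% of all genes, and the difference was 0.47 ± 0.17 (adjusted p = 0.473). Within cluster 1 the Htr6 groups were also apart. They overlapped in cluster 11, at 0.06, 0.0355 and 0.0364 in wild type and 0.0538, 0.0571 and 0.0667 in heterozygotes. Htr4 was at 1.82, 1.44 and 1.19 in wild type and 0.842, 1.00 and 1.43 in heterozygotes, a difference of -0.45 ± 0.19 with overlapping groups (adjusted p = 0.569). The estimate was -0.30 without wild-type replicate 1 and -0.29 without heterozygous replicate 1. Cluster 11, where Htr4 was lower than in cluster 1, made up 18.0%, 18.4% and 20.8% of the class in wild type and 27.3%, 26.5% and 19.98% in heterozygotes, and its part in this difference was not tested beyond equal cluster weights, which gave -0.37 (adjusted p = 0.596). The estimates for Htr2c (-0.25 ± 0.13), Htr1f (-0.16 ± 0.084), Htr1b (-0.14 ± 0.11), Htr2a (0.18 ± 0.15) and Htr7 (0.072 ± 0.14) came from overlapping groups. With classes built without the Htr genes, the estimates were 0.49 for Htr6, still without overlap, -0.37 for Htr1f (adjusted p = 0.475) and 0.014 for Htr7. The median over the 7 members was -0.14, and over all genes 0.036.

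**Figure D5:**
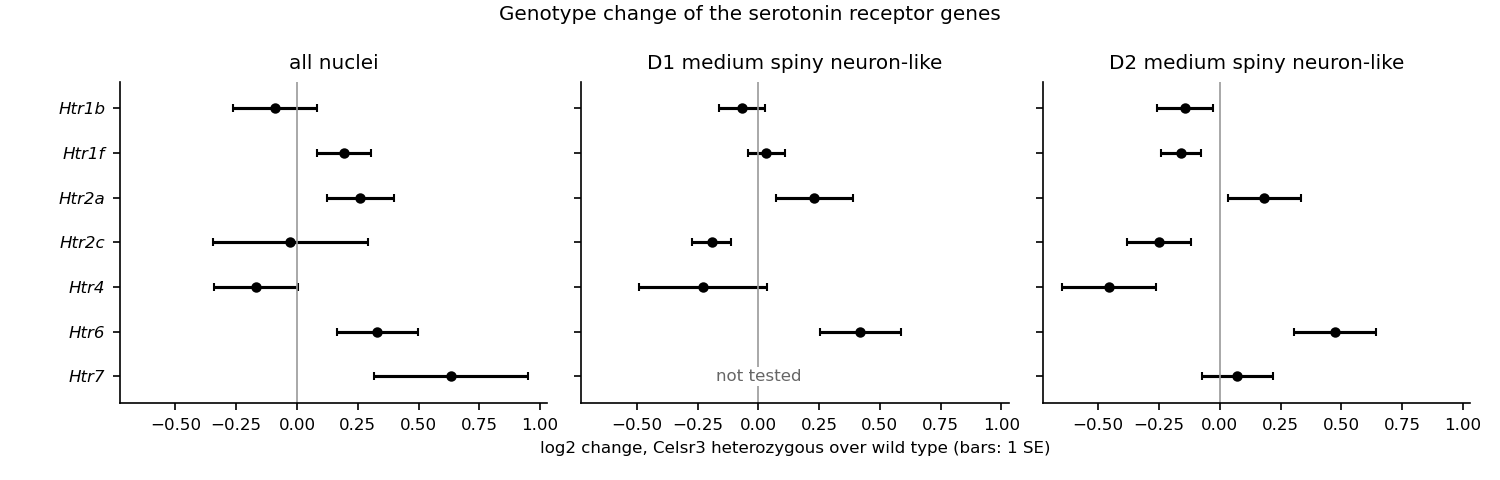
Log2 difference (horizontal axis, heterozygous over wild type) of the 7 genes in all nuclei and in each main MSN-like class; points are limma estimates from 3 libraries per group and bars 1 standard error. Htr6 lies at 0.33 to 0.47 in the 3 panels and Htr7 at 0.63 in all nuclei; no point passed the adjusted test.

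How far the genotype difference differed between D1 and D2 MSN-like nuclei was tested in 1 limma model for the 6 members measured in both. None was called, where 0% of 12413 genes were, and 1 of 6 passed at an unadjusted p under 0.05, as did 4.83% of all genes. That member was Htr1f, with a D1 minus D2 difference of 0.19 ± 0.073 (adjusted p = 0.977), or 0.53 (adjusted p = 0.875) with classes built without the Htr genes. In the other classes with a testable member, 11 in number, 30 tests gave log2 differences from -0.40 to 0.63 with adjusted p from 0.816 to 0.999. None was called, where 0.00801% of all genes were in glutamatergic neuron-like nuclei and 0% in the others, and 3 of the 30 passed at an unadjusted p under 0.05. These were Htr4 and Htr2c in eccentric MSN-like nuclei, at 0.63 ± 0.28 and 0.50 ± 0.20 (adjusted p = 0.976 and 0.962), where 5.05% of all genes passed at that level, and Htr2c in microglia-like nuclei, at 0.29 ± 0.13 (adjusted p = 0.920), where 5.34% did. The Htr2c groups did not overlap in either class, by narrow gaps. The heterozygous libraries lay above, as for 5.10% of all genes in eccentric MSN-like and 4.77% in microglia-like nuclei. In the classes with no member past that level, the share of all genes past it was 5.94% for GABAergic interneuron-like, 4.39% for OPC-like, 6.30% for astrocyte-like, 5.29% for cholinergic interneuron-like and 5.34% for glutamatergic neuron-like nuclei. It was 3.27% for endothelial-like, 4.74% for mural-like, 4.49% for neuroblast-like and 5.66% for oligodendrocyte-like nuclei, and the committed oligodendrocyte precursor-like class (6.74%) held no member that could be tested.

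The other genes of the serotonin pathway were taken as 8 lists of 58 genes, all listed in the table. Of these, 48 reached the test in all nuclei, 43 in the D1 class and 40 in the D2 class, and 0 were called in each. With the deposited scaling 32, 27 and 26 of them had a higher estimate in heterozygotes, and their median log2 differences were 0.072, 0.028 and 0.027, beside 0.070, 0.056 and 0.036 over all genes tested. With size factor scaling the counts were 29, 19 and 17 and the medians 0.013, -0.032 and -0.012, beside 0.0049, -0.0017 and -0.0049 over all genes, so the direction of the medians in the D1 and D2 classes turned with the scaling. The genes named here are the 3 of smallest unadjusted p in each population. Since they were picked for a small p, a lack of overlap between their genotype groups is no further support.

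Slc18a2, the vesicular monoamine transporter that loads serotonin and dopamine into vesicles, had values of 0.244, 0.225 and 0.211 in D1 MSN-like nuclei of wild type and 0.134, 0.1401 and 0.198 in heterozygotes. All heterozygous libraries lay below, as for 5.25% of all genes there, with a difference of -0.52 ± 0.15 (adjusted p = 0.311). The groups were also without overlap in D2 MSN-like nuclei (-0.41 ± 0.13, adjusted p = 0.416) and in all nuclei (-0.43 ± 0.093, adjusted p = 0.438). In these 5.25% and 4.45% of all genes had every heterozygous library below. Htr2b, a Gq-coupled serotonin receptor, was at 0.310, 0.303 and 0.277 in wild-type and 0.225, 0.223 and 0.202 in heterozygous D1 MSN-like nuclei, with a difference of -0.44 ± 0.092 (adjusted p = 0.216). In all nuclei its difference was -0.37 ± 0.10 (adjusted p = 0.454). Htr2b overlaps Psmd1, a proteasome subunit gene on the opposite strand, and whether strand was used in counting is not given. A part of Psmd1 reads in these values was not tested, so they are uncertain.

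Of the adenylyl cyclases, which make cyclic AMP, 6 of the 8 listed were tested in D1 MSN-like nuclei and 0 were called. Adcy9 was at 1.17, 1.16 and 1.08 in wild type and 1.25, 1.47 and 1.26 in heterozygotes there, a difference of 0.22 ± 0.082 (adjusted p = 0.413). The groups did not overlap, with the heterozygotes above as for 11.5% of all genes. Adcy5, the main cyclase of MSN, was at 4.89, 5.04 and 5.07 in wild-type and 5.74, 5.66 and 5.54 in heterozygous D2 MSN-like nuclei, a difference of 0.18 ± 0.059 (adjusted p = 0.430). These groups did not overlap either, with the heterozygotes above as for 9.10% of all genes. Mpdz, a scaffold protein that binds the tail of the Htr2c receptor, had a difference of 0.48 ± 0.16 in D2 MSN-like nuclei (adjusted p = 0.426) and Gnaz, a Gi/o alpha subunit, one of 0.28 ± 0.088 in all nuclei (adjusted p = 0.454). The remaining receptors Htr1a, Htr3a, Htr3b, Htr5a and Htr5b were above 0 in at most 1.30% of all nuclei and were not tested. Htr1d and Htr2b, the other 2 of that list, were above 0 in 6.57% and 16.7% of nuclei and were not called in any of these populations.

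Genes whose class pattern was most like that of a member were found by Pearson correlation of log2 class means over the 14 classes, as a description across classes that share libraries. For Htr1b these were Ano2 (0.983), Mhrt and Gm26907, for Htr1f Gm41414 (0.975), C130026L21Rik and Plcxd3, and for Htr2a Ptgis (0.970) and Kcnh1. For Htr2c they were Calb1 (0.944), Cntnap2 and Ndfip2, and for Htr4 Gm43066 (0.974), A730090N16Rik and the receptor gene Htr1d (0.962). The 14 classes leave out choroid plexus-like nuclei, where Htr2c was highest. Htr6 was most like Rbm24 (0.967), Gm48623 and Kif27, and Htr7 most like Zmat4 (0.940), the delta opioid receptor gene Oprd1 (0.929) and 4930527B05Rik.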

How the data were processed

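Nuclei were isolated from flash-frozen striatum and sequenced with 10x 3′ v3.1 chemistry. The authors deposited 1 table of genes by nuclei for all 6 libraries, whose columns were mapped to libraries by name, made with Cell Ranger and Seurat 4.1 on mm10/GRCm38 per the submitters' processing notes. The deposited values are treated as a score: they are whole numbers, but the total per nucleus varied little (4523 to 10638, coefficient of variation 10.7%), as in molecule counts corrected for depth, so no count model was used and no molecule count can be read from them. Depth before that correction is not given in the sources used here. Nuclei were clustered from 2000 variable genes and 30 principal components with 15 neighbours and Leiden resolution 1.0 (Python 3.11.15, scanpy 1.11.5, igraph 0.11.9, scikit-learn 1.9.0), into 45 clusters.

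Automatic Scrublet calls marked 0.317% to 0.824% of a library, which was taken as not working, so 950 nuclei (1.95%) were removed, those with a score above 0.25 and those of 7 clusters where such nuclei exceeded 40%. A cluster was named when at least 3 markers exceeded 2-fold at a mean above 0.1 and either 40% of its markers did or 1 was among its leading 10 genes, and MSN names also needed 3 of 7 shared MSN genes. It stayed unnamed where another class had more markers among those 10 genes, or had at least 3 markers and 50% of its list with no fewer among those 10. This left cluster 8 unnamed. These thresholds were set after clusters were seen. The 14 classes that every library filled with 20 nuclei or more were used. Genotype was tested with limma 3.58.1 (R 4.3.3, trended variance, two-sided) on log2(mean per nucleus + 0.01) per library, 3 against 3, for genes with a mean of at least 0.02 and a summed value averaging at least 30 per library, with Benjamini-Hochberg adjustment over all genes of the population and a threshold of 0.05. The scripts were tested on simulated data. Named genes are the members, the 3 pathway genes of smallest unadjusted p per population, the 3 genes most like each member, up to 3 leading genes per cluster, and Celsr3. Some genes that this rule names are not reported here. The lists of pathway and marker genes and the members were chosen with earlier results of these data known. Alternatives changed the pseudocount, filter, scaling, library weights, doublets, genes clustered, cluster weights and libraries, and a replicate block was tried.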

Additional observations from a re-analysis of the deposited data

Results flagged for a closer look

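The log2 difference of Htr2c between genotypes was opposite in direction, with no overlap of the genotype groups, in D1 MSN-like nuclei against other classes. In eccentric MSN-like nuclei it was 0.50, with 0.212, 0.301 and 0.316 in wild type and 0.441, 0.414 and 0.326 in heterozygotes. In microglia-like nuclei it was 0.29, with 0.534, 0.597 and 0.506 in wild type and 0.754, 0.659 and 0.599 in heterozygotes. In D1 MSN-like nuclei it was -0.19, with all heterozygous libraries below the wild type, but the groups overlapped within each of its clusters 0, 7 and 15. The gaps were narrow in eccentric MSN-like (0.326 against 0.316) and microglia-like nuclei (0.599 against 0.597). Groups lay apart in the same direction for 5.10% and 4.77% of all genes there, and for 5.25% in D1 MSN-like nuclei. The part of free RNA in the low eccentric MSN-like and microglia-like values was not tested. The difference between these classes was not tested, and none of the 3 values passed limma's test adjusted over all genes (adjusted p = 0.962, 0.920 and 0.464). Groups of 3 libraries were not tested for outlying samples.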

How the results depend on the processing

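No member was called in any of the 75 alternative counts of members called, and no pathway gene in any of the 15 alternatives of that count. Of 397 alternative values of the 26 log2 differences, 374 kept their direction and their side of the threshold, 23 turned direction and 0 became called. The smallest adjusted p among them was 0.0654, for Htr6 in D2 MSN-like nuclei with array weights. With array weights the log2 difference was 0.050 for Htr1b, 0.34 for Htr2c and 0.17 for Htr4 in all nuclei, 0.043 for Htr4 in D1 MSN-like nuclei and -0.052 for Htr2c between D1 and D2. With size factor scaling it was -0.029 for Htr1f in D1 MSN-like nuclei. With equal cluster weights it was -0.23 for Htr7 in D2 MSN-like nuclei and 0.060 for Htr6 between D1 and D2. With clusters built without Htr genes it was -0.038 for Htr2a and -0.064 for Htr2c between D1 and D2, and with a pseudocount of 0.1 it was 0.0060 for Htr6 between D1 and D2. Leaving out 1 library at a time gave ranges of -0.22 to 0.093 for Htr1b and -0.31 to 0.20 for Htr2c in all nuclei, -0.12 to 0.0045 for Htr1b, -0.038 to 0.083 for Htr1f and -0.47 to 0.11 for Htr4 in D1 MSN-like nuclei, and -0.041 to 0.18 for Htr7 in D2 MSN-like nuclei. Between D1 and D2 they were -0.060 to 0.17 for Htr2c, -0.0028 to 0.57 for Htr4 and -0.18 to 0.043 for Htr6. The cause was not tested in any of these. The number of genes called among all tested was 2 in the D1 class and 1 in the D2 class, against 156 and 162 without wild-type replicate 1, 3 and 26 with a replicate block, and 237 and 324 under array weights, and 0 members were among them. Of 294 alternative class means of the members (not cluster means) 293 moved by less than the spread between libraries, and 1 moved by more: Htr1f in D2 MSN-like nuclei was at 0.695 with clusters built without Htr genes, where the cluster matching cluster 11 took in 646 nuclei of the D1 class (from cluster 7), and the D1 class held 8491 and the D2 class 7132 nuclei.

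With the replicate number as a block, 0 members and 0 pathway genes were called, with smallest adjusted p of 0.498 in all, 0.344 in the D1 class and 0.321 in the D2 class for members and 0.149 for pathway genes. The numbers were not taken as pairs, since the labels state no pairing. Same-numbered libraries correlated at -0.038, 0.14 and -0.072 in all nuclei, at 0.27, -0.0034 and 0.18 for the D1 class and at 0.27, 0.081 and 0.17 for the D2 class. Differently numbered libraries ran from -0.15 to 0.18 in all nuclei, from -0.29 to 0.22 for the D1 class and from -0.24 to 0.16 for the D2 class. Most of the latter were below 0 in the D1 and D2 classes, so these values do not decide on pairing.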
